A study of Saccharomyces cerevisiae with 12 samples.

Results

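The stretch of yeast 25S rRNA from nucleotide G2371 to nucleotide C2760, the 5′ part of domain V of the large subunit rRNA, was followed nucleotide by nucleotide with RiboMeth-seq in cells with and without the DEAD-box protein Dbp7. It was defined by position, though chosen with earlier results of these data known. It holds 390 of the 3396 nucleotides of 25S rRNA, out of 5196 nucleotides of 18S and 25S rRNA together. Of the 55 ribose methylation sites listed in the files for the 2 rRNAs, 6 lie in it: U2417, U2421, G2619, A2640, U2724 and U2729. The data comprised 12 libraries of whole cell RNA from exponentially growing Saccharomyces cerevisiae, 3 biological replicates in each of 4 groups, all in strains of the BY4741 background that carried a plasmid. WT + EV was the wild-type strain with an empty vector, and Δdbp7 + EV was a strain without the DBP7 gene with the same vector. In Δdbp7 + Dbp7WT the plasmid in the deletion strain encoded the wild-type protein, and in Δdbp7 + Dbp7DQGD it encoded a catalytically inactive protein with DQGD in place of the DExD motif, both expressed from the promoter of DBP7. The deletion strain stands for 1 gene deletion in 1 strain background, and the measured RNAs did not include DBP7 mRNA, so the genotype of a library could not be checked from its own reads.

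Ribose methylation of rRNA is guided by box C/D small nucleolar RNAs (snoRNAs). Each guide pairs with the rRNA in the precursor particle, and the methyltransferase Nop1, the yeast fibrillarin, places a methyl group on the 2′ oxygen of the paired nucleotide at a fixed distance from the box D of the guide. Dbp7 belongs to the DEAD-box family, whose members use ATP to open or rearrange RNA and RNA-protein contacts, and it acts in the early assembly of the large subunit. Domain V carries the peptidyl transferase centre, where peptide bonds are made. Its 5′ part includes the base of the L1 stalk and the P loop, the hairpin that pairs with the CCA end of the tRNA in the P site, and G2619 lies in the P loop.

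The 6 sites are shown with the rRNA around them because their spacing bears on how they were measured. Positions count from the 5′ end of 25S rRNA (RDN25-1), the sequence was read from the deposited files, and the capitals mark the methylated nucleotides.
25S 2405 to 2433 with U2417 and U2421: cccuguugagcuUgacUcuaguuugacau
25S 2607 to 2631 with G2619: ggaguuuggcugGggcggcacaucu
25S 2628 to 2652 with A2640: aucuguuaaacgAuaacgcagaugu
25S 2712 to 2741 with U2724 and U2729: uugauuuugauuUucagUgugaauacaaac

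Known guides are snR66 for U2417, snR78 for U2421, snR67 for both G2619 and U2724, snR68 for A2640 and snR51 for U2729. Of the 6 modified nucleotides, 4 are U, against 6 of the 49 listed sites elsewhere. U2417 and U2421 lie within 6 nucleotides of each other, as do U2724 and U2729, so each member of a pair is part of the flank against which the other is scored.

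In RiboMeth-seq, alkaline hydrolysis breaks RNA at every nucleotide except where the ribose is methylated, so that few fragments begin or end at a methylated site. The score compares the read ends at a nucleotide with the weighted mean over 6 flanking nucleotides on either side, and runs from 0 for no protection to 1 for complete protection. Each score is an average over all 25S rRNA and precursor molecules of a culture. The libraries held 5580519 to 23549872 read ends, of which 317726 to 1523914 lay in the stretch. At the 6 sites the number of read ends was 20 to 778 per library (median 112), and the 95% interval of a score from counting error alone (exact Poisson) was 0.0103 to 0.0785 wide. These intervals cover counting error only. The 25S rRNA took 60.4% to 64.3% of all read ends in the 6 libraries with active Dbp7 and 45.0% to 52.4% in the 6 without it, and the part of this difference in the results was not tested.

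All 6 sites were highly methylated in every group except for the low scores of single libraries at U2421. Averaged over the 12 libraries, G2619 had the highest score (0.962), followed by U2417 (0.959), U2729 (0.925), U2724 (0.925), A2640 (0.881) and U2421 (0.831). The ranges of the 12 libraries overlapped between all neighbours in this order. Among the 55 sites these means ranked 13 for G2619, 15 for U2417, 30 for U2729, 31 for U2724, 43 for A2640 and 49 for U2421. The last place of U2421 did not hold for scores from only the 5′ ends of the reads. Those averaged 0.938 at U2421, beside 0.936 at U2729 and 0.891 at A2640.

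**Figure D1:**
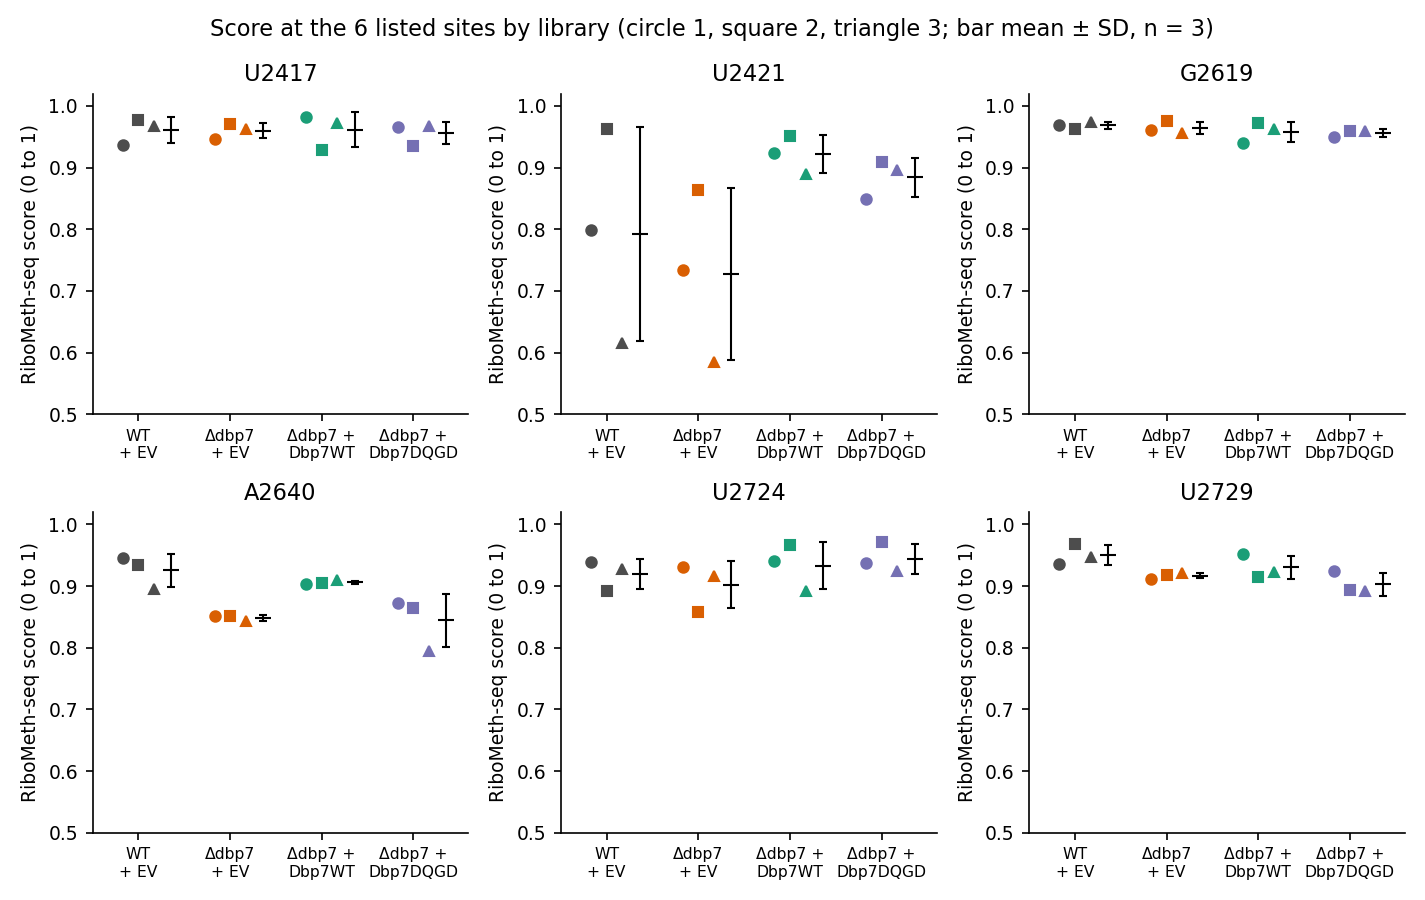
RiboMeth-seq score (vertical axis, from 0.5) at each of the 6 listed sites in the 12 libraries, by group; symbols give the replicate number and black bars the mean ± SD of 3 libraries. A2640 lay at 0.895 to 0.945 in the 6 libraries with active Dbp7 and at 0.795 to 0.873 in the 6 without it, while U2421 ran from 0.585 to 0.962 and followed the replicate number in the WT + EV and Δdbp7 + EV libraries.

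To ask where methylation depends on active Dbp7, the 6 libraries without it (Δdbp7 + EV and Δdbp7 + Dbp7DQGD) were compared with the 6 libraries that had it (WT + EV and Δdbp7 + Dbp7WT), followed by the comparisons between single groups. Without active Dbp7 the score at A2640 decreased by 0.0692 and the score at U2729 decreased by 0.0302, and the other 4 sites did not pass the test. With limma over the 55 sites and Benjamini-Hochberg adjustment, 2 of the 6 sites passed an adjusted p of 0.05, against 9 of 55 sites (16.4%) overall. In Δdbp7 + EV against WT + EV, 1 of the 6 passed (A2640), with 5 of 55 sites overall (9.09%). In Δdbp7 + Dbp7DQGD against Δdbp7 + Dbp7WT, limma called 0 of the 6, with 6 of 55 overall (10.9%), with A2640 the only 1 of the 6 at an unadjusted p under 0.05 (0.0115), and edgeR on the read ends also called 0. The median difference over the 6 sites was -0.0166 without active Dbp7, -0.0253 in the deletion and -0.0162 with the inactive protein, beside -0.00811, -0.00709 and -0.0140 over all 55 sites. With so few members, 1 or 2 calls are close to what the overall shares give.

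The clearest difference was at A2640, the nucleotide guided by snR68. Its score was 0.945, 0.935 and 0.895 in the 3 WT + EV libraries and 0.852, 0.851 and 0.843 in the 3 Δdbp7 + EV libraries. It was 0.903, 0.906 and 0.909 with Dbp7WT and 0.873, 0.864 and 0.795 with Dbp7DQGD. Every library with active Dbp7 lay above every library without it. How many of the 55 sites separate in this way is not given here, so the separation is not shown to be particular to A2640. The group means ± SD were 0.925 ± 0.0264 in WT + EV, 0.849 ± 0.0052 in Δdbp7 + EV, 0.906 ± 0.00289 with Dbp7WT and 0.844 ± 0.0426 with Dbp7DQGD (n = 3 each). The difference without active Dbp7 was -0.0692 (SE 0.0139, adjusted p = 0.00639) by limma, and in an exact permutation test over the 12 libraries (two-sided, 924 splits) p was 0.00216, the smallest value that test can give (adjusted over the 55 sites, 0.017). The permutation test takes no account of the numbered pairs of libraries described below. Leaving out any 1 library kept the adjusted p of limma between 0.00408 and 0.0183. In the deletion the difference was -0.0767 (SE 0.0196, adjusted p = 0.038) and with the inactive protein -0.0616 (SE 0.0196, adjusted p = 0.0793), all by limma. The first of these was no longer called without 9 of the 12 libraries taken out in turn (adjusted p up to 0.145), and was kept without WT + EV 3, Δdbp7 + Dbp7DQGD 1 or Δdbp7 + Dbp7DQGD 3.

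U2729, guided by snR51, differed less. Its score was 0.935, 0.968 and 0.947 in WT + EV and 0.912, 0.917 and 0.922 in Δdbp7 + EV, with no overlap. It was 0.952, 0.915 and 0.923 with Dbp7WT and 0.924, 0.893 and 0.891 with Dbp7DQGD, where the ranges overlapped, since Dbp7WT 2 and Dbp7WT 3 were no higher than Dbp7DQGD 1. The libraries without active Dbp7 averaged 0.91 ± 0.0142 and those with it 0.94 ± 0.0194 (SD, n = 6 each), a difference of -0.0302 (SE 0.00898, adjusted p = 0.0494) by limma. The exact permutation test (two-sided) gave p = 0.0173, and 0.106 after adjustment over the 55 sites. That test takes no account of the numbered pairs described next. In each of the 6 pairs the library without active Dbp7 was the lower one at U2729, with differences of -0.0502 to -0.0215. The call of limma was lost without 9 of the 12 libraries taken out in turn (adjusted p up to 0.124) and was kept without WT + EV 1, Δdbp7 + Dbp7WT 2 or Δdbp7 + Dbp7DQGD 1. The other target of snR51, A100 of 18S rRNA, differed by 0.0130 in the opposite direction and did not pass (SE 0.0232, adjusted p = 0.822 by limma).

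Libraries with the same number varied together within the WT + EV and Δdbp7 + EV set and within the Dbp7WT and Dbp7DQGD set. A fit with each such pair as a block called U2421 as well as A2640 and U2729. It gave 3 of the 6 sites without active Dbp7, with 21 of 55 overall (38.2%), and 3 of the 6 in the deletion, with 17 of 55 overall (30.9%). With the inactive protein it gave 2 of the 6, A2640 and U2729, with 16 of 55 overall (29.1%). In this fit by limma the adjusted p without active Dbp7 was 0.00326 at A2640, 0.00302 at U2729 and 0.0158 at U2421. For Δdbp7 + EV against WT + EV the 3 adjusted p-values in the same order were 0.0122, 0.012 and 0.0308. For Dbp7DQGD against Dbp7WT they were 0.0313, 0.0269 and 0.177. The differences themselves are those of the fit without pairs.

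Among the 6 listed sites, libraries of one group differed most at U2421, the snR78 site. Its score was 0.798, 0.962 and 0.615 in WT + EV and 0.733, 0.863 and 0.585 in Δdbp7 + EV. It was 0.924, 0.952 and 0.889 with Dbp7WT and 0.849, 0.909 and 0.896 with Dbp7DQGD. The WT + EV and Δdbp7 + EV libraries were each highest in number 2 and lowest in number 3, and in all 3 numbered pairs Δdbp7 + EV was the lower one, with differences of -0.0985 to -0.0301. Dbp7DQGD was below Dbp7WT in 2 of 3 pairs. In the fit without pairs the mean difference without active Dbp7, -0.0508 (SE 0.061), was smaller than its error (adjusted p = 0.69 by limma). With each pair as a block its SE was 0.0125 (adjusted p = 0.0158 by limma).

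The files give the 5′ and the 3′ ends of the reads separately, and the spread at U2421 lay in the 3′ ends. The number of 3′ ends at U2421 was 719, 70 and 591 in WT + EV and 195, 88 and 405 in Δdbp7 + EV, while 5′ ends numbered 59, 44 and 25 and 47, 53 and 35. Scored from 3′ ends alone, U2421 was 0.598, 0.947 and 0.38 in WT + EV and 0.537, 0.845 and 0.264 in Δdbp7 + EV. It was 0.833, 0.947 and 0.856 with Dbp7WT and 0.702, 0.911 and 0.86 with Dbp7DQGD. Scored from 5′ ends alone, the site was 0.972, 0.974 and 0.961 in WT + EV and 0.903, 0.885 and 0.931 in Δdbp7 + EV. It was 0.973, 0.956 and 0.934 with Dbp7WT and 0.924, 0.908 and 0.931 with Dbp7DQGD. Every library with active Dbp7 then lay above every library without it, the closest being Dbp7WT 3 above both groups' number 3 without active Dbp7. How many of the 55 sites separate in this way by 5′ ends is not given here. The separation is therefore not shown to be particular to U2421, and limma called 23 of 55 sites from 5′ ends. By 5′ ends the difference was -0.0478 (SE 0.00882, adjusted p = 0.00129) by limma. The exact permutation p was 0.00216 (two-sided, the smallest it can give), and 0.0085 adjusted over the 55 sites. Here too the permutation test takes no account of the numbered pairs. By 3′ ends the difference was -0.0736 (SE 0.115, adjusted p = 0.934 by limma). The split by kind of end was taken up after its values were seen, so the p-values from 5′ ends are not those of a planned test. What sets the number of 3′ ends at this nucleotide was not tested.

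The deposited overview of group means differs from the libraries at this site in 2 groups. The authors' mean for U2421 is 0.965 in WT + EV and 0.899 in Δdbp7 + EV, while the deposited scores of the 3 libraries average 0.792 and 0.727. The 5′-end scores average 0.969 ± 0.0065 and 0.907 ± 0.0231 (SD, n = 3). At the other 5 sites, and at U2421 in the Dbp7WT and Dbp7DQGD groups, the overview equals the mean of the libraries within 0.001. A legend in the overview speaks of sites with a barcode correction without naming them.

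**Figure D2:**
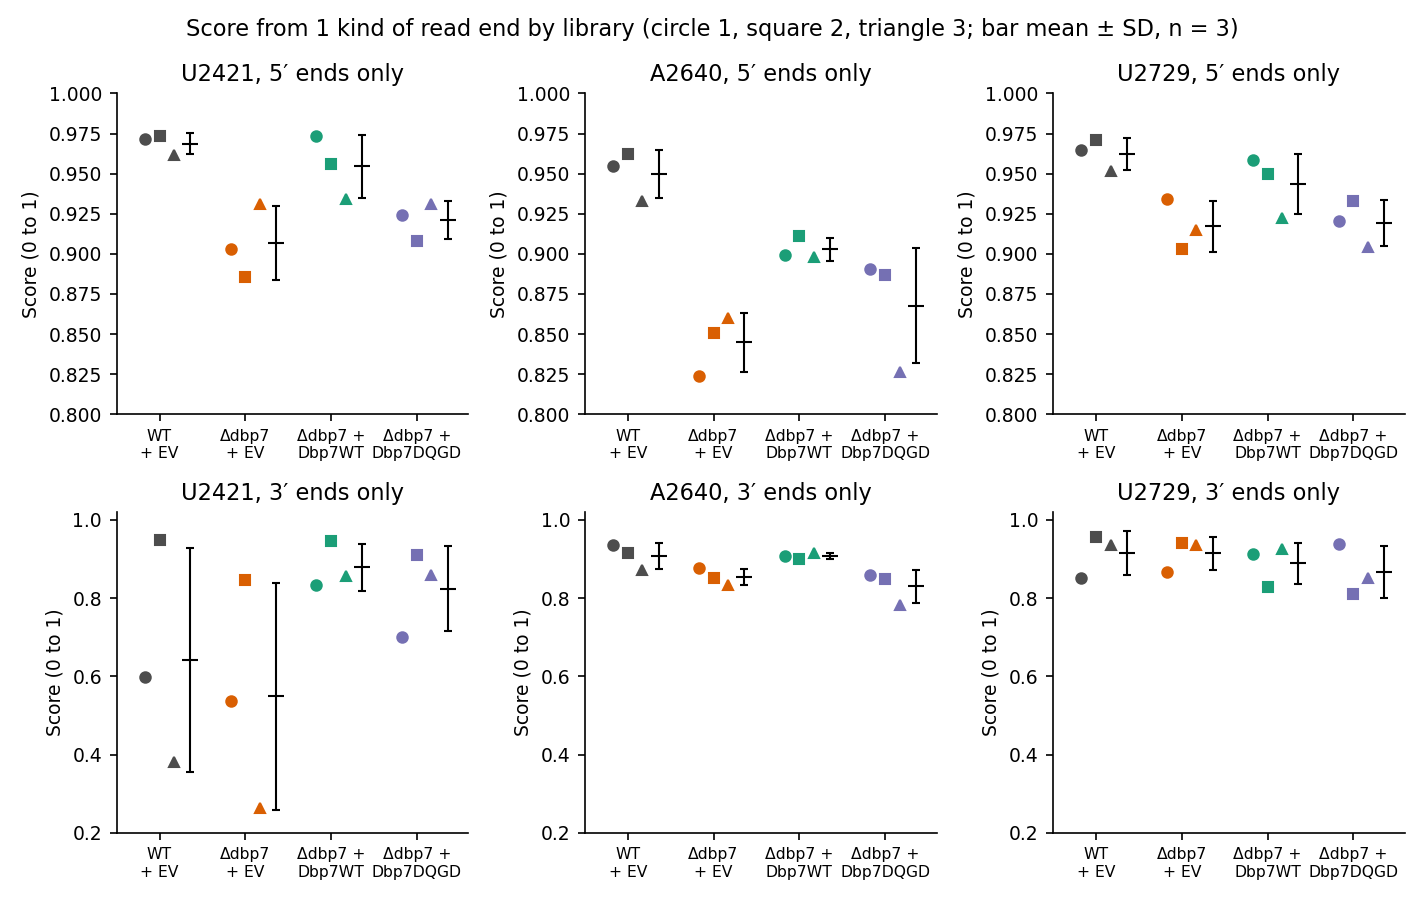
Scores at U2421, A2640 and U2729 computed from 5′ read ends alone (upper row, axis from 0.8 to 1) and from 3′ read ends alone (lower row, axis from 0.2), by library and group; symbols give the replicate number and black bars the mean ± SD of 3 libraries. The 3′ scores of U2421 ran from 0.264 to 0.947, while its 5′ scores stayed between 0.885 and 0.974 with no overlap between libraries with and without active Dbp7.

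The larger spread of 3′ ends held beyond U2421. The SD within groups of the 3′ score exceeded that of the 5′ score at 5 of the 6 sites, all but G2619, and at 46 of the 49 other sites, with medians over the 6 sites of 0.0158 for 5′ ends and 0.0474 for 3′ ends. At the 384 nucleotides outside the 6 sites the median SD of the log2 ratio of ends to flank was 0.20 for 5′ ends and 0.32 for 3′ ends. Without active Dbp7, A2640 differed by -0.0702 by 5′ ends and -0.0657 by 3′ ends (adjusted p = 0.00059 and 0.0403 by limma). The deletion difference was -0.105 by 5′ ends and -0.0537 by 3′ ends (adjusted p = 0.000518 and 0.41 by limma), and that with the inactive protein was -0.0351 and -0.0776 (adjusted p = 0.142 and 0.198 by limma). U2729 differed by -0.0348 by 5′ ends (adjusted p = 0.00453) and by -0.0114 by 3′ ends (SE 0.0301, adjusted p = 0.934 by limma).

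From 5′ ends alone, limma called U2421, A2640 and U2729 without active Dbp7, 3 of the 6 beside 23 of 55 overall (41.8%), so the share in the stretch was near the background. The same 3 sites were called in Δdbp7 + EV against WT + EV, beside 17 of 55 overall (30.9%), and 0 of the 6 in Dbp7DQGD against Dbp7WT by limma, beside 14 of 55 overall (25.5%), with only U2421 at an unadjusted p under 0.05 (0.0226). In the deletion the 5′ differences were -0.105 at A2640, -0.0621 at U2421 and -0.0451 at U2729. With the inactive protein they were -0.0351, -0.0335 and -0.0245 (adjusted p = 0.142, 0.083 and 0.142 by limma). The counts without active Dbp7 and in the deletion were 3 whichever library was left out, and the count with the inactive protein rose to 1 without Δdbp7 + EV 2 or 3 and to 2 without Δdbp7 + Dbp7WT 3.

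By 5′ ends A2640 was 0.955, 0.962 and 0.933 in WT + EV and 0.824, 0.85 and 0.86 in Δdbp7 + EV. It was 0.899, 0.911 and 0.898 with Dbp7WT and 0.89, 0.887 and 0.826 with Dbp7DQGD. The 3 Dbp7WT libraries thus lay below the 3 WT + EV libraries and above both groups without active Dbp7, with -0.0472 for Dbp7WT against WT + EV (adjusted p = 0.271 by limma). The deletion effect minus the effect of the inactive protein was -0.0702 here, with an adjusted p of 0.164 by limma, and had the opposite sign by 3′ ends, 0.0239 (SE 0.0327). By 5′ ends U2729 was 0.965, 0.971 and 0.952 in WT + EV and 0.934, 0.903 and 0.915 in Δdbp7 + EV. It was 0.959, 0.95 and 0.923 with Dbp7WT and 0.92, 0.933 and 0.904 with Dbp7DQGD, which overlapped through Dbp7WT 3.

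U2417, G2619 and U2724 did not pass in any comparison or from either kind of end. U2417 was 0.937, 0.978 and 0.968 in WT + EV and 0.947, 0.97 and 0.962 in Δdbp7 + EV, 0.929 to 0.982 with Dbp7WT and 0.935 to 0.967 with Dbp7DQGD. Its difference without active Dbp7 was -0.00298 (SE 0.0115), and by 5′ ends all 12 libraries were between 0.976 and 0.993. G2619, the P loop nucleotide, was the most even of the 6, at 0.939 to 0.975 over the 12 libraries, with a difference of -0.00287 (SE 0.00647). U2724, which shares the guide snR67 with G2619, was 0.939, 0.891 and 0.928 in WT + EV and 0.931, 0.859 and 0.916 in Δdbp7 + EV, 0.892 to 0.966 with Dbp7WT and 0.925 to 0.972 with Dbp7DQGD. Its difference was -0.00294 (SE 0.0175), and as at U2421 its spread lay in the 3′ ends, which gave scores of 0.675 to 0.976 beside 0.951 to 0.978 from 5′ ends. The adjusted p-values of these 3 differences were 0.869, 0.854 and 0.87 by limma. At each of them the libraries with and without active Dbp7 overlapped.

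Across the 2 sets of libraries, Δdbp7 + EV and WT + EV were each compared with Dbp7WT to ask whether the plasmid copy restored methylation. Dbp7DQGD was also compared with WT + EV. In these comparisons strain or plasmid cannot be told apart from the set. Dbp7DQGD against WT + EV called 2 of the 6 sites, beside 9 of 55 overall (16.4%) by limma. They were A2640 with a difference of -0.0809 (SE 0.0196, adjusted p = 0.0266) and U2729 with -0.0473 (SE 0.0127, adjusted p = 0.0333). Both calls were lost without WT + EV 1 (limma adjusted p = 0.0842 at A2640 and 0.0754 at U2729) or WT + EV 2 (0.0732 and 0.110). The call at U2729 was also lost without WT + EV 3, Δdbp7 + EV 1, Δdbp7 + EV 3, Dbp7DQGD 2 or Dbp7DQGD 3, with limma adjusted p between 0.0519 and 0.131. For Δdbp7 + EV against Δdbp7 + Dbp7WT limma called 0 of the 6, beside 2 of 55 overall (3.64%), with only A2640 at an unadjusted p under 0.05 (difference -0.0574, unadjusted p = 0.0164), and edgeR also called 0. From 5′ ends alone that comparison called 2 of the 6, beside 13 of 55 overall (23.6%), which were A2640 (-0.0581, adjusted p = 0.0246) and U2421 (-0.0479, adjusted p = 0.0175, by limma). Dbp7WT against WT + EV called 0 of the 6 and 0 of 55 sites by limma (0%, with 2 of 55 at an unadjusted p under 0.05). The difference between the deletion effect and the effect of the inactive protein was called at 0 of the 6 and 0 of 55 sites by limma (0%, with 2 of 55 at an unadjusted p under 0.05), and at A2640 it was -0.0151 (SE 0.0278). edgeR on the read ends likewise called 0 of the 6 in both.

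Other nucleotides of interest in the stretch were read at the same depth. U2634, which carries a methyl group on its base placed by Bmt5, scored 0 to 0.167, and G2395, the nucleotide that the snoRNA snR190 is predicted to address, 0 to 0.241. The pseudouridine at U2735 scored 0 to 0.191. None of these was protected to a degree near that of the 6 sites. The pseudouridine at U2416, next to U2417, scored 0.333 to 0.673, lowest in number 1 of each group.

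Outside the 6 sites the median score over 384 nucleotides was 0.0741, and 4 averaged at least 0.5: G2706 (0.600), U2565 (0.549), U2416 (0.536) and A2547 (0.532). U2565 was protected mainly by its 5′ ends, with 5′ scores of 0.746 to 0.968 beside 3′ scores of 0 to 0.52. None of the 4 is in the list of methylated sites, and the scores alone do not tell methylation from other protection or from uneven capture of ends.

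To look for changes outside the listed sites, the read ends at each nucleotide were compared with its own flank by edgeR. Of the 390 nucleotides 0 passed in any of 4 comparisons, beside 0 of 5172 nucleotides tested over both rRNAs (0% for no active Dbp7 against active Dbp7, 0% for the deletion, 0% for the inactive protein and 0% for the difference of the last 2). At an unadjusted p under 0.05 the same comparisons gave 6, 6, 2 and 0 of the 390, beside 85, 67, 21 and 5 of 5172. In the first comparison this was 1.64% of the 5172, below the share of 0.05 that a test gives when nothing changes. With pairs as blocks, 654 of the 5172 had an unadjusted p under 0.05 there by edgeR. The fit without pairs was thus cautious, and its 0 calls do not show that nothing changed. In the first comparison DESeq2 called 1 of the 390, beside 6 of 5172 overall (0.116%), and the fit with pairs as blocks called 1, beside 14 of 5172 overall (0.271%). Both calls were A2721. In the other 3 comparisons both called 0 of the 390. On simulated data the edgeR fit recovered 92.5% of 1.5-fold changes and 14.9% of 1.25-fold changes over the 5172 nucleotides in the first comparison. The simulated counts were drawn independently for each library, without the shared variation of same-numbered libraries, so these rates need not hold for the data. In the data A2640 changed by 0.88 on the log2 scale there and was not called (adjusted p = 0.555 by edgeR). The median size of the log2 change over the 390 nucleotides was 0.06 without active Dbp7, and it was 0.06 over all 5172.

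A2721, 3 nucleotides before U2724, had the smallest p in the stretch in 3 of the 4 comparisons and missed the threshold in each by edgeR. Its score was 0.312, 0.377 and 0.392 in WT + EV and 0.0738, 0.067 and 0.217 in Δdbp7 + EV. It was 0.408, 0.395 and 0.368 with Dbp7WT and 0.288, 0.225 and 0.173 with Dbp7DQGD, so that all libraries with active Dbp7 lay above all libraries without it. A2721 was named for its small p in these same data, so this separation adds no support. By 5′ ends alone the ranges overlapped, at 0.397 to 0.530 with active Dbp7 and 0.164 to 0.422 without it. By 3′ ends they were 0 to 0.371 and 0 to 0.321. Read ends over flank differed by 0.40 on the log2 scale without active Dbp7 (SE 0.0853, adjusted p = 0.353 by edgeR). The value was 0.46 in the deletion and 0.34 with the inactive protein. The adjusted p without active Dbp7 was 0.00685 with DESeq2 and 0.0133 with pairs as blocks by edgeR. A2721 is not a listed site. Among nucleotides that are not listed sites, the next smallest p were those of A2554 without active Dbp7 (log2 0.23), G2469 in the deletion (0.34), A2547 with the inactive protein (0.31), and A2443 (0.35) and C2539 (-0.27) for the difference between the last 2, with adjusted p of 1.00 each by edgeR.

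From 5′ ends alone, where 388 of the 390 nucleotides were tested, the edgeR scan called A2640 and U2427 without active Dbp7, beside 16 of 5141 overall (0.311%), and A2640 in the deletion, beside 7 of 5141 overall (0.136%). U2427, a nucleotide with no listed modification, had 5′ scores of 0.137 to 0.264 with active Dbp7 and 0 to 0.0118 without it, and 3′ scores of 0 to 0.0551. It was picked by this scan of the same 5′ ends, so the separation of its 5′ scores adds no support. From both ends it scored 0 to 0.103 with active Dbp7 and 0 without it. Its log2 change from both ends was 0.11 (unadjusted p = 0.27 by edgeR).

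**Figure D3:**
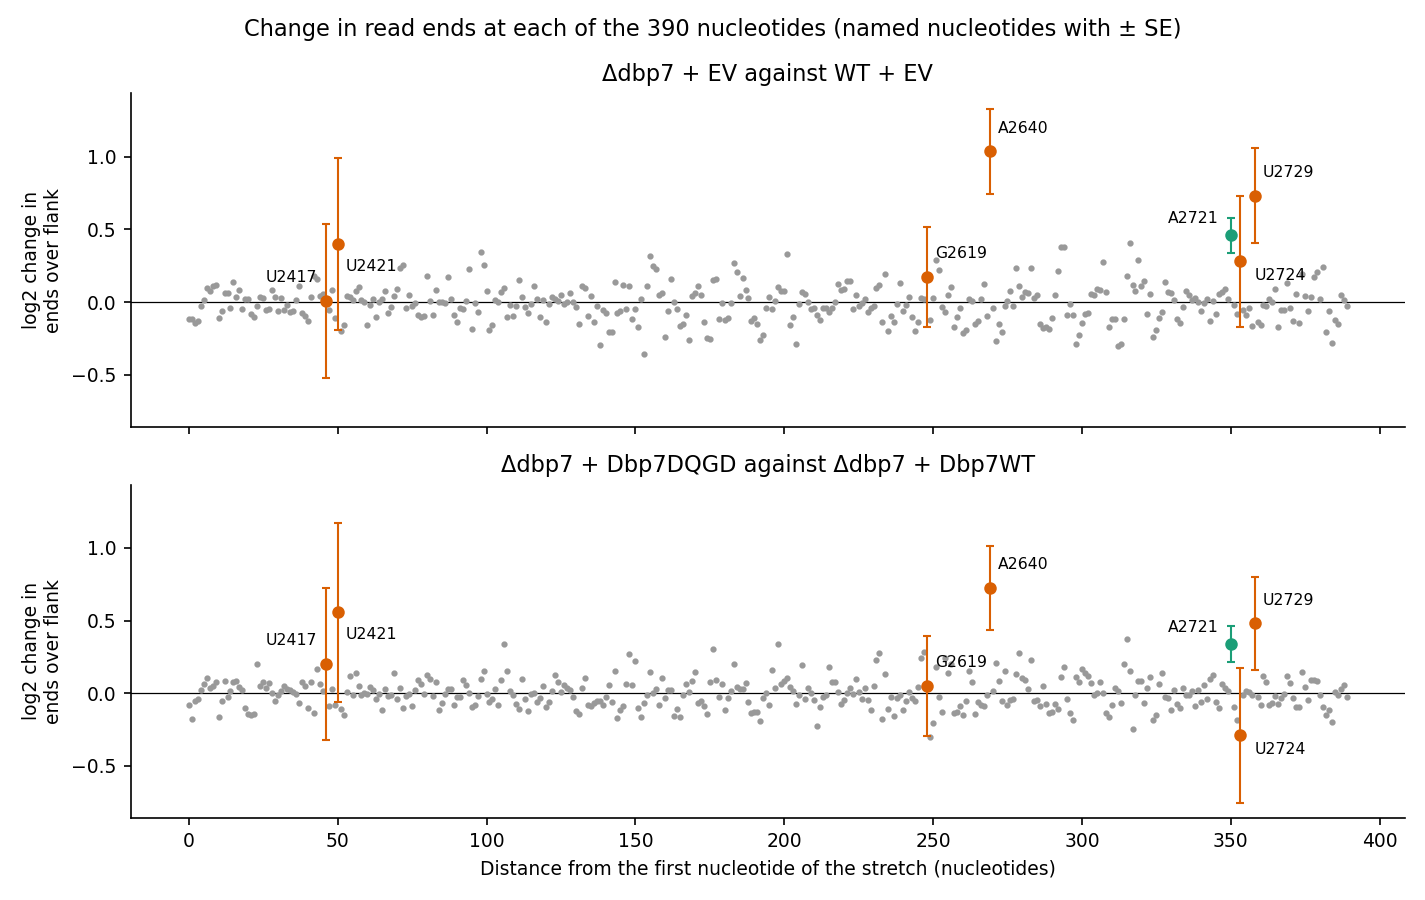
Log2 change in read ends over the flank at each of the 390 nucleotides (grey points), plotted by distance from the first nucleotide, for Δdbp7 + EV against WT + EV (upper) and Δdbp7 + Dbp7DQGD against Δdbp7 + Dbp7WT (lower); the 6 listed sites (orange) and A2721 (green) carry ± SE. A2640 was the highest point in both, at 1.04 and 0.72, and no point passed the adjusted threshold by edgeR.

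The amount of RNA read in the stretch was compared last. The stretch holds 11.5% of the nucleotides of 25S rRNA. Its share of 25S read ends was between 10.5% and 10.6% in the WT + EV libraries, and between 10.0% and 11.4% in those of Δdbp7 + EV. With Dbp7WT it was between 11.1% and 11.4%, and with Dbp7DQGD between 10.9% and 11.8%. Of 13 windows of 30 nucleotides, edgeR called 0 in each of 3 comparisons, beside 0 of 113 windows of 25S rRNA (0% without active Dbp7, 0% in the deletion and 0% with the inactive protein, and 0 at an unadjusted p under 0.05 in each). DESeq2 also called 0 of the 13 in each. On simulated data this fit recovered 40% of windows changed by 1.25-fold and 0% of those changed by 1.1-fold without active Dbp7, so small shifts were not detectable. The simulated windows too lacked the shared variation of same-numbered libraries. Having 0 of 113 windows at an unadjusted p under 0.05 is fewer than a test gives when nothing changes. The 0 calls therefore do not show that no window changed.

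The window from 2551 to 2580 had the smallest p without active Dbp7 and in the deletion. It held 0.523 ± 0.0758% of 25S read ends in WT + EV and 0.623 ± 0.0607% in Δdbp7 + EV. It held 0.515 ± 0.0622% with Dbp7WT and 0.564 ± 0.0916% with Dbp7DQGD (SD, n = 3). The log2 change was 0.19 without active Dbp7 (SE 0.12, adjusted p = 0.995 by edgeR) and 0.25 in the deletion. The next smallest p were those of the window from 2581 to 2610 without active Dbp7 (0.08) and of the window from 2491 to 2520 in the deletion (-0.21). With the inactive protein the windows from 2521 to 2550 (0.19) and from 2641 to 2670 (-0.09) had the smallest p. Relative to all 18S and 25S read ends instead, 4 of the 13 windows were lower without active Dbp7, 0 in the deletion and 1 with the inactive protein, beside 42 (24.3%), 0 (0%) and 4 (2.31%) of 173 windows called lower over both rRNAs by edgeR. Called in either direction were 91 (52.6%), 0 (0%) and 27 (15.6%) of the 173. These include the windows of 18S rRNA, whereas the 13 windows all lie in 25S rRNA. The share called lower among the 113 windows of 25S rRNA alone is not given here, so 4 of 13 cannot be called high or low. In the deletion 57 of the 173 windows had an unadjusted p under 0.05. The share of 25S rRNA itself was lower in all 6 libraries without active Dbp7 than in any of the other 6.

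**Figure D4:**
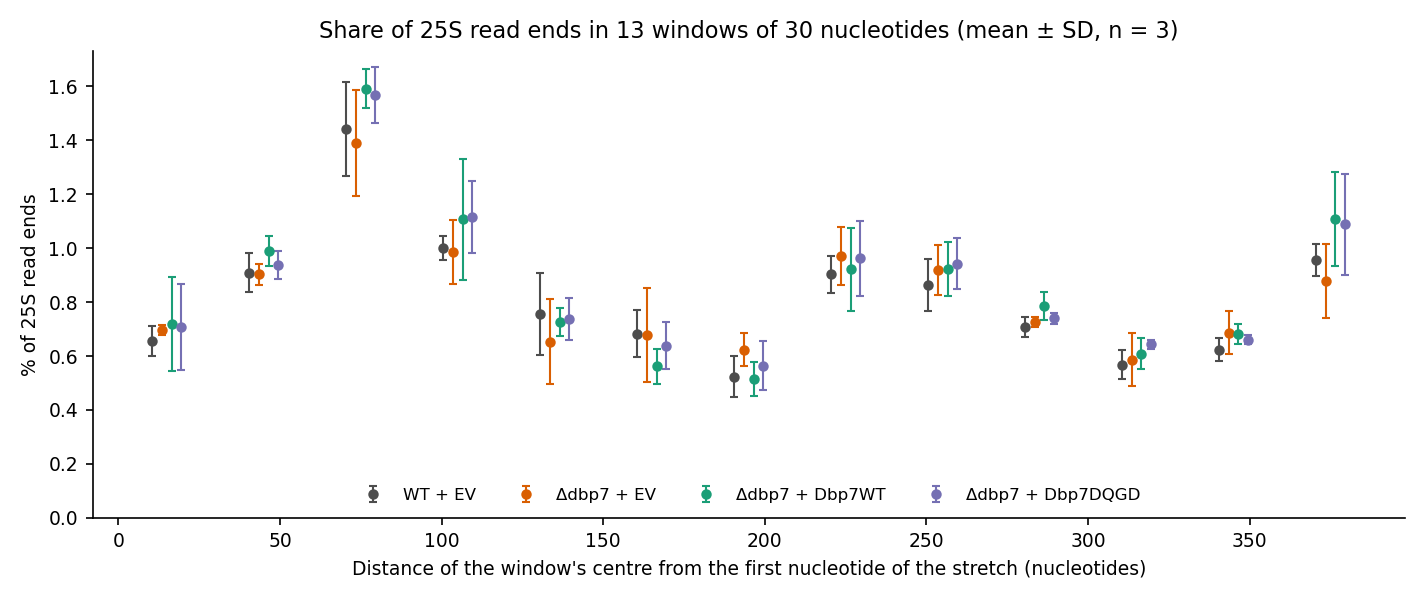
Share of 25S read ends (per cent, axis from 0) in 13 windows of 30 nucleotides, plotted by the distance of the window's centre from the first nucleotide; points and bars are the mean ± SD of 3 libraries in each group. The groups lay within each other's spread in most windows, from about 0.515% to 1.59% of 25S read ends, and no window passed the test with 25S read ends as the total.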

How the data were processed

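RiboMeth-seq had been run on whole cell RNA broken by alkali, with fragments of 20 to 40 nucleotides read on an Ion Proton. Per the submitters' processing notes, reads were trimmed with cutadapt 2.0 and mapped with Bowtie2 2.3.4.1. The genome build is not given in the sources used here, so positions are those within 25S rRNA. The authors deposited, for each library and nucleotide, the counts of reads that begin and that end there (5′ and 3′ ends), with a score as a fraction from 0 to 1, and an overview of the authors' group means, also a fraction. Another 24 columns of scores by other formulas were not used. No column holds fold changes or p-values.

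Scores recomputed from the counts equalled the deposited ones, and the 24 nucleotides within 6 of an RNA end, which lack a full flank, were not recomputed. Score differences at the 55 listed sites were tested with limma 3.58.1, all 12 libraries sharing the estimate of spread. End counts at 5172 nucleotides (flanking mean of at least 50, flank as offset) and in windows of 30 nucleotides of 25S rRNA were tested with edgeR 4.0.16 (quasi-likelihood), and DESeq2 1.42.0 was an alternative. P-values were adjusted by Benjamini-Hochberg over all features of a fit, with a threshold of 0.05. Single sites were also tested by exact permutation of 6 against 6 libraries. Group comparisons of 3 against 3 have no such test, since their smallest exact p is 0.1. The limma fit of the sites and the edgeR fits of nucleotides and windows were tested on simulated data for the comparison without against with active Dbp7; the alternative fits were not.

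Same-numbered libraries correlated in their deviations from the group means within each of 2 sets (r of 0.839 to 0.930 in 6 pairs, against -0.722 to 0.0861 for different numbers within a set and -0.205 to 0.113 for the same number across sets), and this is the source of the pairing. Deviations from a mean of 3 libraries sum to 0, so the negative r for different numbers within a set follows in part from that centring. What a number stands for is not given in the labels. The stretch, the lists and the named nucleotides were chosen with earlier results of these data known. Named were the 6 sites, G2395, U2416, U2634 and U2735, and, where no feature of a scan passed, the 2 unlisted ones of smallest p. U2427, U2565, G2706 and the split by kind of end were taken up after their values were seen.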

Additional observations from a re-analysis of the deposited data

Results flagged for a closer look

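In 1 of 36 groups examined (scores from all ends, 5′ ends and 3′ ends at the 6 sites, with 6 libraries in each group), a library lay apart from the others by more than Dixon's criterion allows. At G2619 the score of Δdbp7 + Dbp7WT 1 was 0.939, below the nearest of the other 5 libraries with active Dbp7 at 0.962. Chance alone flags about 1 in 20 such groups.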

How the results depend on the processing

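The fall at A2640 without active Dbp7 passed the threshold under all 23 alternatives, with adjusted p of 1.67e-05 to 0.0403, and that at U2729 under 8 of 23 (0.00143 to 0.934). Among the 6 sites, 2 were called without active Dbp7. The replicate block per pair called 3, as did the 5′ ends and the edgeR fit with that block, while the replicate block by number over all 12 libraries, the logit scale, the 3′ ends, the unweighted flank, the flank without other sites and edgeR each called 1. In the deletion, where 1 was called, the replicate block per pair, with and without edgeR or 5′ ends, and the 5′ ends called 3, and the 3′ ends and edgeR called 0. With the inactive protein, where 0 were called, the replicate block per pair called 2 and, with edgeR, 1, and the block by number called 1. For Dbp7DQGD against WT + EV, where 2 were called, the logit scale and edgeR called 1. The 3′ ends and a fit on those groups alone called 0, and the 5′ ends called 3 (U2421, A2640 and U2729). At U2421 that difference was 0.0928 from all ends and -0.0477 by 5′ ends (adjusted p = 0.567 and 0.0119 by limma). For Δdbp7 + EV against Dbp7WT, where 0 were called, a fit on those groups alone called 1 and the 5′ ends 2. The causes were not tested. The paired fits changed no other call at the sites.

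Leaving out 1 library at a time gave 1 to 2 called sites without active Dbp7, 0 to 1 in the deletion, 0 to 2 for Dbp7DQGD against WT + EV and 0 to 1 for Δdbp7 + EV against Dbp7WT, and from 5′ ends 0 to 2 with the inactive protein. In the scan of nucleotides without active Dbp7, 0 were called, against 1 with DESeq2, 1 with the replicate block per pair and 2 from 5′ ends. In the deletion the 5′ ends called 1. With 18S and 25S read ends as library size, 4 windows were called without active Dbp7 and 1 with the inactive protein, and a minimum of 1000 ends removed 0 windows.

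Differences that changed sign had been near 0 in most cases. U2417 without active Dbp7 became 6.71e-05 by 5′ ends, with or without the replicate block, and ran from -0.0110 to 0.00224 over the fits without 1 library. U2421 in the deletion became 0.0204 without WT + EV 2 and 0.00649 without Δdbp7 + EV 3, in a range of -0.153 to 0.0204. G2619 became 0.00130 by 3′ ends and ran from -0.00750 to 0.000610 without 1 library. U2724 became 0.0338 by 3′ ends and ran from -0.0132 to 0.00788 without 1 library. By 3′ ends U2729 became 2.21e-05 in the deletion and 0.0249 for Δdbp7 + EV against Dbp7WT, and A2640 became 0.000119 for Dbp7WT against WT + EV. The A2640 deletion effect minus that of the inactive protein, -0.0151, became 0.0239 by 3′ ends. Counting error alone gave intervals 0.0103 to 0.0785 wide for a library's score. On simulated scores for the comparison without active Dbp7, 62% of decreases of 0.05 and 83% of decreases of 0.1 were recovered. Those scores lacked the shared variation of same-numbered libraries.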
